A study of Mus musculus with 6 samples.

Results

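The genes of the immunoproteasome and of peptide loading were compared between microglia from MRL/lpr and MRL/mpj mice. The group holds 10 genes, chosen by symbol: Tap1, Tap2, Tapbp, Tapbpl, Psmb8, Psmb9, Psmb10, Psme1, Psme2 and Nlrc5. Each was found once among the 55401 Ensembl identifiers of the deposited count table. MRL/lpr mice have the Fas mutation lpr on the MRL/MpJ background and develop a lupus-like autoimmune disease, and MRL/mpj mice are the strain of that background without it. All mice were 6 weeks old and untreated, and each strain gave 3 libraries. The cells came from the brains of perfused mice, after digestion and a Percoll gradient, by magnetic selection for CD11b, a surface protein that other myeloid cells also carry. The methods describe female mice of both strains, but the sources used here do not give the sex of the animals that were sequenced. They also do not say whether a library came from 1 mouse or from several. The p-values therefore judge the strain difference against the spread between these libraries, which may not be the spread between mice.

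Cells show fragments of their own proteins to CD8 T cells on MHC class I molecules. The proteasome cuts the proteins, and under interferon its 3 catalytic subunits are replaced by Psmb8, Psmb9 and Psmb10, which gives the immunoproteasome, while Psme1 and Psme2 form the PA28 cap that opens it. The transporter Tap1-Tap2 pumps the peptides into the endoplasmic reticulum, tapasin (Tapbp) holds empty class I molecules at the transporter and helps them to select a peptide, and its relative Tapbpl edits peptides away from it. Nlrc5 is a coactivator that drives transcription of class I genes together with several genes of this route. In microglia this route is known to rise when they respond to interferon.

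Of the 10 genes, 5 sit on chromosome 17, in or beside the MHC. On GRCm38, Psmb9 (ENSMUSG00000096727, 34181987 to 34187764, minus strand), Tap1 (ENSMUSG00000037321, 34187553 to 34197225, plus strand), Psmb8 (ENSMUSG00000024338, 34197721 to 34201454, plus strand) and Tap2 (ENSMUSG00000024339, 34203527 to 34216321, plus strand) lie within 34335 bp. Tapbp (ENSMUSG00000024308, 33915899 to 33929292, plus strand) ends 252695 bp before this cluster. Psme1 (ENSMUSG00000022216, 55578123 to 55581529, plus strand) and Psme2 (ENSMUSG00000079197, 55587441 to 55591113, minus strand) are neighbours on chromosome 14, with 5912 bp between them. Nlrc5 (ENSMUSG00000074151, 94434356 to 94527272, plus strand) and Psmb10 (ENSMUSG00000031897, 105935735 to 105938444, minus strand) are on chromosome 8, and Tapbpl (ENSMUSG00000038213, 125223933 to 125231860, minus strand) is on chromosome 6.

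Interferon and class I regulators are known to act on such genes through short promoter elements, and the matches to them are shown here. RefSeq promoter windows on GRCm38.p6, which run from 250 bases before to 50 bases after a start site, were at hand for 7 of the 10 genes, and Tap2, Tapbpl and Nlrc5 had no entry. A search of both strands used the core of the interferon-stimulated response element (GAAA, any 2 bases, GAAA), the gamma-activated sequence (TTCNNNGAA) and the CCAAT box bound by NF-Y. The 4 stretches of 30 bases below hold the matches of the genes on which the later values turn, with the matching letters in capitals and each stretch written 5′ to 3′ on the plus strand.
Tap1 and Psmb9, chr17:34187322-34187351: gggctcggctttCCAATcagcggctgcgcg
Psmb8, chr17:34198088-34198117: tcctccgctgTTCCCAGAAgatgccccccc
Psme1, chr14:55578493-55578522: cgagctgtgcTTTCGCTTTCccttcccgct
Tapbp, chr17:33919301-33919330: attaaaatatttATTGGtcacttcacttgg

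The first stretch shows 1 CCAAT box that Tap1 and Psmb9 share, because the genes are transcribed away from each other from start sites at 34187556 and 34187330, with 225 bases between them. The box begins at position -222 in the Tap1 window and at position -8 in the Psmb9 window, with the start site counted as 0, and the windows have 275 bases in common. Psmb8 holds a gamma-activated sequence at -97, and Psme1 holds the interferon-stimulated core at 9, read on the minus strand. Tapbp holds CCAAT on the minus strand at -248 and at -165, of which the second is shown. Counted over genes, the response element was found in 1 of 7, the gamma-activated sequence in 1 of 7 and CCAAT in 3 of 7. Of all 32851 RefSeq windows, 3.44%, 8.3% and 37.4% hold them. By GENCODE, the match in each of the 4 stretches also lies in an exon. For the stretches of Tap1 and Psmb9, of Psmb8 and of Psme1 the exon is of Psmb9, Psmb8 and Psme1 respectively. For the stretch of Tapbp the exons are of other genes, Zbtb22 and Gm19412.

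The library totals were 45481609 to 48199739 counts for MRL/lpr and 47826322 to 49846634 counts for MRL/mpj, and the 10 genes held between 331 and 9260 counts in any library. Fas, the gene mutated in MRL/lpr, was not called (log2 fold change -0.06, 95% interval -0.53 to 0.41, adjusted p = 0.887 from edgeR). Its level was 7.64 ± 1.96 CPM in MRL/lpr and 7.96 ± 0.888 CPM in MRL/mpj (SD, n = 3 each), so its total did not set the strains apart. A count per gene does not separate the mutant transcript from the intact one, and the strain labels were not tested with it. Xist, which is expressed from the inactive X chromosome of female cells, was at 213 to 240 CPM in MRL/lpr and at 0.519 to 0.760 CPM in MRL/mpj. The low Xist values of MRL/mpj are at odds with the methods, which describe female mice of both strains, and the reason was not tested. Strain and the sex of the cells as Xist gives it cannot be told apart in these 6 libraries. Mitochondrial genes held 3.06% to 3.49% of the counts in MRL/lpr and 5.84% to 6.38% in MRL/mpj. MRL/lpr replicate 3 stood apart in CT010467.1, on which 6.38% of its counts fell, against 0.169% to 0.457% in the other libraries.

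Of the 10 genes, 9 were higher in the MRL/lpr libraries, 0 were lower, and Tapbp alone did not pass the test. The count of lower genes was also 0 at an unadjusted p under 0.05 and with DESeq2. A gene was called higher or lower where edgeR's quasi-likelihood test gave an adjusted p under 0.05, with the Benjamini-Hochberg method over all 19554 genes tested. All 10 genes had enough counts to be tested. Among all tested genes 11.1% were called higher and 9.06% were called lower. The 10 genes were chosen with earlier results of these data known, so the difference between these shares and theirs was not tested. The median log2 fold change of the 10 genes was 0.49, against -0.01 over all tested genes. Scaling by library size only moves the median of all genes to -0.13, and 7 of the 10 genes were then called higher, without Psme1 and Psme2. With a minimum log2 fold change of 1, the minimum in the study's methods, only Nlrc5 was called, where 4.67% of all genes were. In TMM-scaled CPM, the MRL/lpr libraries lay above the MRL/mpj libraries without overlap in 9 of the 10 genes, and in 19.6% of all tested genes.

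**Figure D1:**
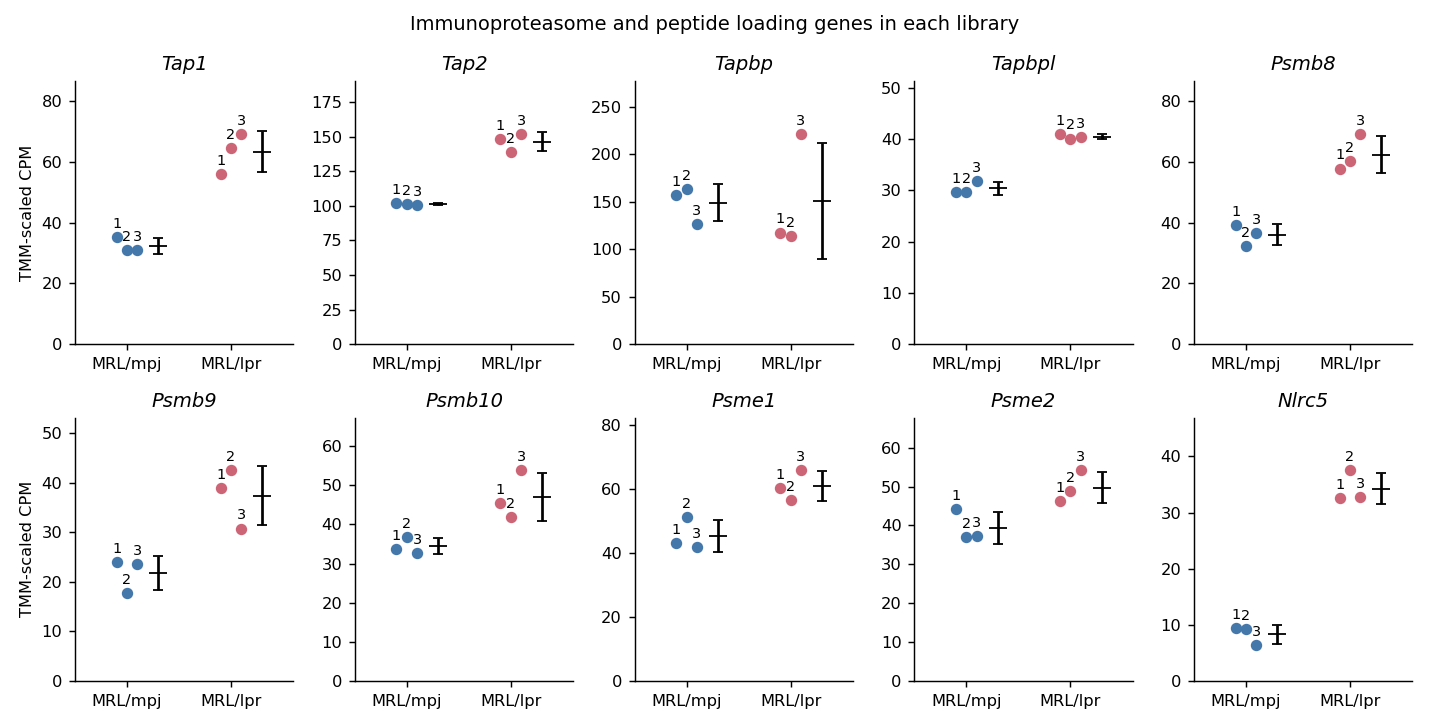
TMM-scaled CPM (y axis, linear from 0) of each of the 10 genes in each library, MRL/mpj in blue and MRL/lpr in red, with the replicate number over each point and the mean with its SD as bars (n = 3). In 9 panels every MRL/lpr library lies above every MRL/mpj library, and in the Tapbp panel MRL/lpr replicate 3 lies far above the other libraries of its strain.

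Markers of several cell types differed between the strains together with these genes. The microglial list of 8 markers was high in each library, with a sum of 21539 to 24135 CPM in MRL/lpr and 25320 to 26035 CPM in MRL/mpj, and 3 of its markers were lower in MRL/lpr. The counts of its marker Cx3cr1 were 10645, 132706 and 10334 in the MRL/lpr libraries, and without this gene, a choice made after the data were seen, the sums were 20868 to 23869 CPM and 24737 to 25455 CPM. T cells are known to express the immunoproteasome without stimulation, and their markers summed to 13.4 to 16.7 CPM in MRL/lpr and 2.72 to 3.73 CPM in MRL/mpj, with 5 of 6 markers higher. NK cell markers summed to 10.1 to 10.2 CPM against 2.86 to 4.07 CPM (3 of 5 higher), and plasma cell markers to 20.2 to 24.9 CPM against 8.36 to 9.54 CPM (2 of 4 higher). Neutrophil markers summed to 535 to 615 CPM against 416 to 476 CPM (2 of 5 higher), monocyte markers to 72.1 to 79.8 CPM against 80.7 to 87.4 CPM (2 higher and 1 lower of 5), and border macrophage markers to 29.8 to 34.6 CPM against 40.8 to 46.3 CPM (2 of 5 lower). Endothelial markers summed to 1271 to 1448 CPM against 1199 to 1232 CPM (1 higher and 1 lower of 5). Lower sums in MRL/lpr were those of choroid plexus (4 of 5 markers lower), oligodendrocytes (2 of 5) and neurons (2 of 5), while B cell, dendritic cell and astrocyte sums overlapped. No marker was at 0 in all 6 libraries, and in MRL/mpj the T cell marker Cd3e had 2, 0 and 9 counts. In such bulk samples fewer cells of a type and less RNA per cell cannot be told apart, and the part of these cells in the results above was not tested.

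Nlrc5, the class I coactivator, had the largest log2 fold change of the 10 genes. Its level, given here and below for each gene in CPM scaled by TMM, that is, as a share of the library's scaled total, was 32.5, 37.5 and 32.8 in the MRL/lpr libraries and 9.38, 9.18 and 6.36 in the MRL/mpj libraries. The lowest MRL/lpr library was thus well above the highest MRL/mpj library. The mean was 34.3 ± 2.81 CPM (SD, n = 3) in MRL/lpr and 8.31 ± 1.69 CPM (SD, n = 3) in MRL/mpj. The change was 4.13-fold, or 2.04 as log2 (standard error 0.16, 95% interval 1.69 to 2.40, adjusted p = 2.36e-05 from edgeR). Each of 14 alternative analyses kept the call, with log2 fold changes between 1.83 and 2.14. Nlrc5 was also the least abundant of the genes per length, with 3.45 ± 0.350 FPKM (fragments scaled by gene length and depth; SD, n = 3) in MRL/lpr and 0.903 ± 0.185 FPKM (SD, n = 3) in MRL/mpj.

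Both subunits of the peptide transporter were higher in MRL/lpr. Tap1 had 56.0, 64.7 and 69.3 CPM in the MRL/lpr libraries and 35.3, 30.9 and 30.9 CPM in the MRL/mpj libraries. The means were 63.3 ± 6.76 and 32.4 ± 2.56 CPM (SD, n = 3 each), and the log2 fold change was 0.97 (standard error 0.10, 95% interval 0.73 to 1.20, adjusted p = 0.000189 from edgeR). Tap1 therefore lay just under the fold-change minimum, and it passed that minimum without MRL/lpr replicate 1 (log2 fold change 1.05) and without MRL/mpj replicate 1 (1.03), which makes 2 of the 10 genes past it in these fits. Tap2 had 148, 139 and 152 CPM in MRL/lpr and 102, 101 and 101 CPM in MRL/mpj. Its MRL/mpj libraries were closely alike, with a mean of 101 ± 0.763 CPM (SD, n = 3) against 146 ± 7.00 CPM (SD, n = 3) in MRL/lpr. The log2 fold change of Tap2 was 0.53 (standard error 0.07, 95% interval 0.38 to 0.68, adjusted p = 0.000474 from edgeR). The antisense gene Gm15821 shares 14.097% of the exonic bases of Tap2 and held between 75 and 204 counts in any library. The transporter needs both subunits, and per length Tap2 was the more abundant transcript in each library. It reached 33.1 ± 1.16 FPKM against 9.87 ± 0.843 FPKM for Tap1 in MRL/lpr, and 24.9 ± 0.177 FPKM against 5.49 ± 0.430 FPKM in MRL/mpj (SD, n = 3 each).

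Of the 2 tapasin genes, only Tapbpl was called. Tapbpl, the peptide editor outside the loading complex, had 41.0, 40.1 and 40.3 CPM in MRL/lpr and 29.6, 29.6 and 31.8 CPM in MRL/mpj. The spread within each strain was small, and the log2 fold change was 0.41 (standard error 0.08, 95% interval 0.23 to 0.60, adjusted p = 0.00603 from edgeR). Tapbp, the tapasin of the loading complex, had 118, 114 and 222 CPM in MRL/lpr and 157, 164 and 127 CPM in MRL/mpj. MRL/lpr replicate 3 was the highest of the 6 libraries and the other MRL/lpr libraries were the lowest, so the strains overlapped. The log2 fold change of Tapbp was 0.02 (standard error 0.30, 95% interval -0.73 to 0.77, adjusted p = 0.978 from edgeR), and the interval holds values as large as those of Tap2 and Psmb10 in either direction. Without MRL/lpr replicate 3 it was -0.36 (adjusted p = 0.0709), and without MRL/mpj replicate 3 it was -0.09. The part of the CT010467.1 counts in the Tapbp value of MRL/lpr replicate 3 was not tested. The genes Zbtb22 (same strand) and Gm19412 (antisense) share 4.107% and 24.917% of the exonic bases of Tapbp, but Gm19412 held only 47 to 119 counts in any library.

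All 3 catalytic subunits of the immunoproteasome were higher in MRL/lpr. Psmb8, the chymotrypsin-like subunit also called LMP7, had 57.8, 60.1 and 69.2 CPM in MRL/lpr and 39.1, 32.4 and 36.6 CPM in MRL/mpj. Its log2 fold change was 0.79 (standard error 0.10, 95% interval 0.56 to 1.03, adjusted p = 0.000632 from edgeR). Psmb9, also called LMP2, had 38.9, 42.5 and 30.8 CPM in MRL/lpr and 24.0, 17.7 and 23.5 CPM in MRL/mpj. MRL/lpr replicate 3 was the lowest library of its strain for Psmb9 while it was the highest for Tap1 and Psmb8, the neighbours of Psmb9 on the chromosome. The log2 fold change of Psmb9 was 0.78 (standard error 0.15, 95% interval 0.44 to 1.13, adjusted p = 0.00593 from edgeR). Psmb10, also called MECL-1, had 45.5, 41.8 and 53.8 CPM in MRL/lpr and 33.8, 36.8 and 32.7 CPM in MRL/mpj. Its log2 fold change was 0.45 (standard error 0.11, 95% interval 0.20 to 0.70, adjusted p = 0.0177 from edgeR). The call of Psmb10 was lost without MRL/mpj replicate 1 (adjusted p = 0.0708) and without MRL/mpj replicate 3 (adjusted p = 0.0753), while those of Psmb8 and Psmb9 were kept in each of the 14 alternatives.

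Tap1 and Psmb9 overlap by 212 bp on opposite strands, which is 3.871% of the exonic bases of Tap1 and 5.792% of those of Psmb9. The strand setting of the authors' counting is not given in the sources used here, so reads in this stretch cannot be told apart. The ratio of Tap1 to Psmb9 in FPKM was not the same in each library. It was 0.962, 1.02 and 1.51 in the MRL/lpr libraries and 0.985, 1.17 and 0.879 in the MRL/mpj libraries. The strains overlapped in this ratio, and MRL/lpr replicate 3 was its highest value.

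None of the 3 constitutive counterparts was called. Psmb5, Psmb6 and Psmb7 are the catalytic subunits that Psmb8, Psmb9 and Psmb10 replace. Their log2 fold changes were -0.16 for Psmb5 (95% interval -0.60 to 0.28, adjusted p = 0.642), -0.09 for Psmb6 (95% interval -0.30 to 0.12, adjusted p = 0.577) and 0.02 for Psmb7 (95% interval -0.17 to 0.21, adjusted p = 0.916; edgeR for each). The ratio of each immunosubunit to its counterpart was then formed from the FPKM values of each library. Psmb8 to Psmb5 was 1.06, 1.06 and 0.841 in MRL/lpr and 0.477, 0.417 and 0.649 in MRL/mpj. Psmb9 to Psmb6 was 0.454, 0.466 and 0.292 in MRL/lpr and 0.242, 0.175 and 0.233 in MRL/mpj. Psmb10 to Psmb7 was 1.61, 1.48 and 1.87 in MRL/lpr and 1.14, 1.26 and 1.29 in MRL/mpj. Each ratio was higher in every MRL/lpr library than in every MRL/mpj library. From the means of the log2 ratios the difference was 1.94-fold for Psmb8 (0.987 ± 0.126 against 0.514 ± 0.120), 1.84-fold for Psmb9 (0.404 ± 0.0971 against 0.217 ± 0.0364) and 1.34-fold for Psmb10 (1.65 ± 0.196 against 1.23 ± 0.0819), with the means of the ratios themselves in parentheses (SD, n = 3 each). The two-sided exact permutation test gave p = 0.1 for each of the 3 ratios (0.1 also after Benjamini-Hochberg adjustment over the 3), which is the smallest p that 3 libraries against 3 allow. The size of each ratio depends on the gene lengths in the FPKM values. In CPM, MRL/lpr replicate 1 had 57.8 for Psmb8 and 14.5 for Psmb5. The difference between the strains changed little with CPM ratios, at 0.96, 0.88 and 0.42 on the log2 scale for Psmb8, Psmb9 and Psmb10. These are ratios of transcripts, and no protein or assembled proteasome was measured.

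**Figure D2:**
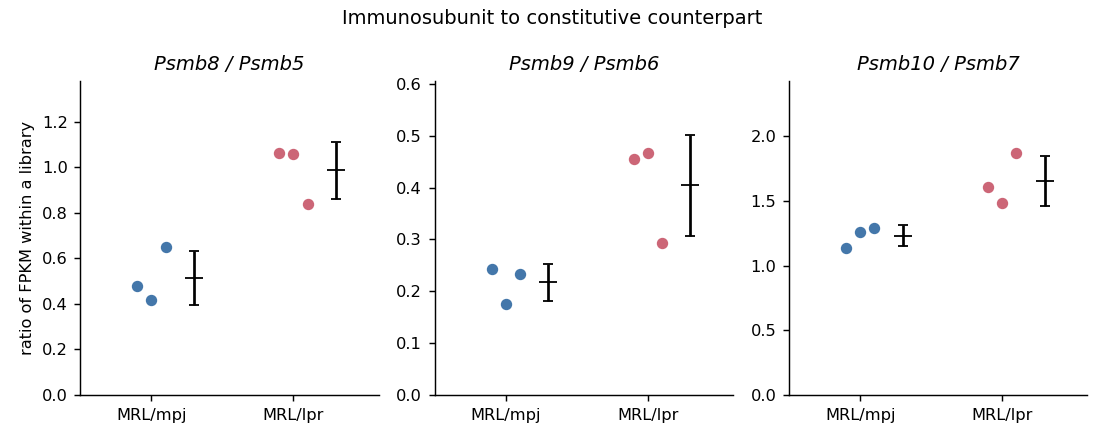
Ratio of the FPKM of each immunosubunit to that of its constitutive counterpart (y axis, linear from 0) in each library, MRL/mpj in blue and MRL/lpr in red, with the mean and SD as bars (n = 3). In each panel the 3 MRL/lpr points lie above the 3 MRL/mpj points, and MRL/lpr replicate 3, the last red point, is the lowest for Psmb8 and Psmb9 and the highest for Psmb10.

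Both PA28 genes were called, with log2 fold changes under the median of the 10 genes. Psme1, which encodes PA28 alpha, had 60.5, 56.5 and 65.9 CPM in MRL/lpr and 43.2, 51.2 and 41.9 CPM in MRL/mpj. Its log2 fold change was 0.42 (standard error 0.10, 95% interval 0.19 to 0.66, adjusted p = 0.0174 from edgeR). Psme2, which encodes PA28 beta, had 46.2, 48.8 and 54.1 CPM in MRL/lpr and 44.1, 36.9 and 37.2 CPM in MRL/mpj. MRL/mpj replicate 1 came close to the lowest MRL/lpr library for Psme2. In FPKM the strains overlapped for Psme2, with 22.8 in MRL/lpr replicate 1 and 23.2 in MRL/mpj replicate 1. The log2 fold change of Psme2 was 0.34 (standard error 0.10, 95% interval 0.10 to 0.57, adjusted p = 0.0483 from edgeR). The call of Psme1 was lost without MRL/mpj replicate 1 (adjusted p = 0.0771) or replicate 3 (0.0758) and kept without each of the other libraries. The call of Psme2 was lost without each library except MRL/mpj replicate 1, with adjusted p-values of 0.0589, 0.0989 and 0.0906 without MRL/lpr replicates 1, 2 and 3 and of 0.171 and 0.162 without MRL/mpj replicates 2 and 3. Psme2 also has a near-identical copy, Psme2b, whose transcript matched it at 99.37% of 794 aligned bases, so that reads could be split between them. Psme2b changed by a similar amount on the log2 scale, 0.35 with a standard error of 0.10 (adjusted p = 0.0295 from edgeR).

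**Figure D3:**
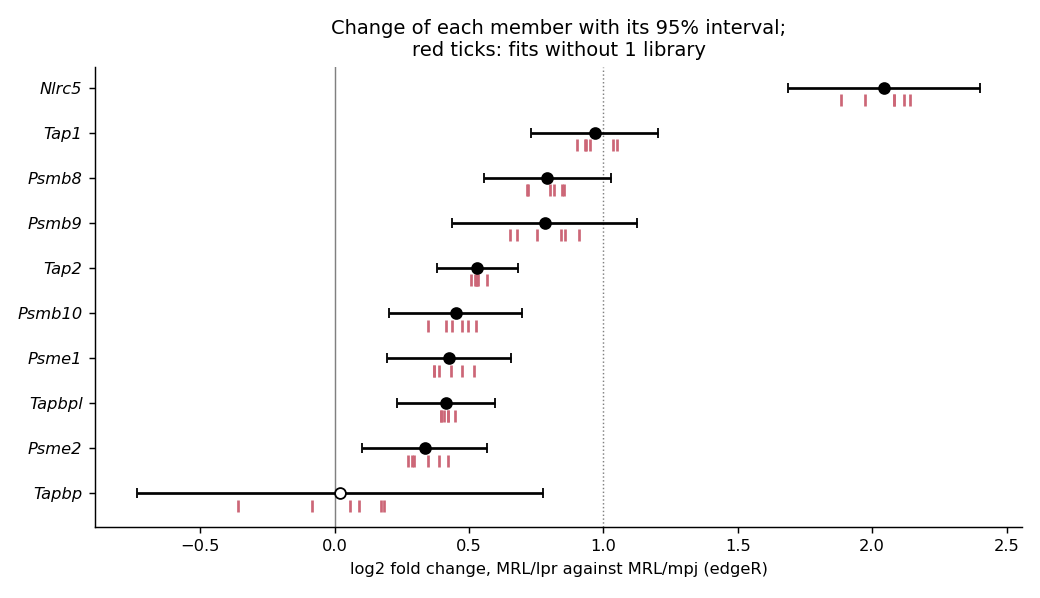
Log2 fold change of each gene, MRL/lpr against MRL/mpj (x axis), with its 95% interval from edgeR (filled points, adjusted p under 0.05; open point, not called). Red ticks give the fits without 1 library, the solid line is at 0 and the dotted line at 1. Nlrc5 stands at 2.04 and the other 8 called genes between 0.34 and 0.97, while the ticks of Tapbp lie on both sides of 0.

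Per length, the order of the genes was much alike in the strains. The annotation behind the gene lengths in the FPKM values is not given, and the order between genes depends on those lengths. In MRL/lpr, Tapbp (35.3 ± 13.0 FPKM) and Tap2 (33.1 ± 1.16 FPKM) came first and overlapped, followed by Psme2 (24.0 ± 1.23), Psme1 (23.6 ± 1.18) and Psmb10 (23.5 ± 2.35), which overlapped too. Psmb8 (15.7 ± 1.02) and Tapbpl (14.7 ± 0.554) could not be separated in MRL/lpr, nor could Tap1 (9.87 ± 0.843) and Psmb9 (8.76 ± 1.65; FPKM, SD, n = 3 each). In MRL/mpj, Tapbp (38.2 ± 5.06 FPKM) lay above Tap2 (24.9 ± 0.177 FPKM) in each library, and Tapbpl (12 ± 0.494 FPKM) lay above Psmb8 (9.91 ± 0.923 FPKM). Psmb9 (5.51 ± 0.880 FPKM) and Tap1 (5.49 ± 0.430 FPKM) overlapped in MRL/mpj, and Nlrc5 was the lowest in both strains.

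The other proteasome genes were counted against the background of 11.1% called higher and 9.06% called lower among all tested genes. Of the 14 genes of the constitutive 20S core, 0 were called in either direction by edgeR, 0 had an unadjusted p under 0.05 and 0 were called by DESeq2, and their log2 fold changes ran from -0.16 to 0.16 with a median of 0.01. Of the 22 genes of the 19S particle, which recognises and unfolds ubiquitinated proteins, only Psmd8 was called, at 0.72 as log2 (standard error 0.06, adjusted p = 5.94e-05), and the median was 0.02. The other activators Psme3 (PA28 gamma, -0.04, adjusted p = 0.760) and Psme4 (PA200, 0.06, adjusted p = 0.719) were not called. Psmg2, an assembly chaperone of the core, was lower at -0.49 (adjusted p = 0.0321), but this call was lost without any single library other than MRL/lpr replicate 1 (adjusted p = 0.0576 to 0.102). It was 1 of 8 activators, inhibitors and assembly factors called. The adjusted p-values are from edgeR.

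Of the 7 genes of peptide trimming 1 was called lower, and of the 7 class I chaperones 1 was called higher and 1 lower, which is a share near the 11.1% called higher and 9.06% called lower of all tested genes. Erap1, the aminopeptidase that trims peptides in the endoplasmic reticulum, had a log2 fold change of -0.05 (95% interval -0.21 to 0.11, adjusted p = 0.701). The trimming gene called was Lap3, a leucine aminopeptidase of the cytosol, which fell by 0.42 on the log2 scale (adjusted p = 0.00234). Among the chaperones, Calr (calreticulin, 0.01, 95% interval -0.11 to 0.13, adjusted p = 0.921) and Pdia3 (ERp57, -0.23, adjusted p = 0.0634) were not called, although both sit with Tapbp in the loading complex. Pdia3 was called without MRL/lpr replicate 1 (log2 fold change -0.28, adjusted p = 0.0463), with scaling by library size only (-0.35, adjusted p = 0.0226) and with limma on FPKM (-0.35, adjusted p = 0.0458). Canx (calnexin) was lower at -0.22 (adjusted p = 0.0286), a call lost without any single library other than MRL/lpr replicate 3 (adjusted p = 0.0546 to 0.112). Hspa5, the general chaperone BiP, was higher at 0.61 (adjusted p = 0.00131). These adjusted p-values are from edgeR except the one from limma.

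The class I chains themselves moved in both directions. B2m, the light chain, had 1417, 1386 and 1304 CPM in MRL/lpr and 830.4, 811 and 775 CPM in MRL/mpj, a log2 difference of 0.77 (standard error 0.06, adjusted p = 2.41e-05 from edgeR). H2-K1 had 426, 571 and 484 CPM in MRL/lpr and 176, 186 and 185 CPM in MRL/mpj, a log2 difference of 1.44 (standard error 0.10, adjusted p = 1.17e-05 from edgeR). H2-D1 had 307, 283 and 279 CPM in MRL/lpr and 613, 588 and 592 CPM in MRL/mpj, a log2 difference of -1.04 (standard error 0.06, adjusted p = 4.96e-06 from edgeR). The groups did not overlap for any of the 3 chains. Class I heavy chain genes are close relatives, and reads can be split between them, so the values of H2-K1 and H2-D1 are uncertain.

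Of the 14 transcriptional regulators of this route, 5 were higher, where 11.1% of all tested genes were, and 0 were lower, where 9.06% were (1 lower at an unadjusted p under 0.05, and 0 with DESeq2). Among the higher genes were Ciita (1.61, adjusted p = 0.00148), the class II counterpart of Nlrc5, and Stat2 (1.21, adjusted p = 0.000126) and Irf9 (0.64, adjusted p = 0.00519), which carry interferon signals to the nucleus. Rfx5 (0.42, adjusted p = 0.0166), part of the complex through which Nlrc5 and Ciita reach DNA, was also higher, but it was not called without MRL/lpr replicate 1 (adjusted p = 0.0542) or any single MRL/mpj library (adjusted p = 0.0502 to 0.0689). Irf1, an interferon-induced activator of Psmb9 and Tap1, had 7118, 7020 and 4967 counts in MRL/lpr and 6555, 3163 and 3567 counts in MRL/mpj. MRL/mpj replicate 1 thus lay within the range of MRL/lpr, and Irf1 was not called (0.69, 95% interval -0.07 to 1.46, adjusted p = 0.194). Without that library its log2 fold change was 1.08 (adjusted p = 0.000993). Among the 5 genes of interferon gamma and its receptor, the kinase gene Jak1 was higher (0.53, adjusted p = 0.000234) and the receptor chain gene Ifngr1 was lower (-0.76, adjusted p = 5.22e-05). Ifng had 64, 71 and 26 counts in MRL/lpr and 5, 26 and 31 counts in MRL/mpj and was not called (1.52, 95% interval -0.01 to 3.05, adjusted p = 0.159). Values in parentheses are log2 fold changes and adjusted p-values from edgeR. Over the 80 genes of these lists outside the 10, edgeR called 10 higher and 5 lower, close to the 11.1% and 9.06% of all tested genes, with a median log2 fold change of 0.02.

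**Figure D4:**
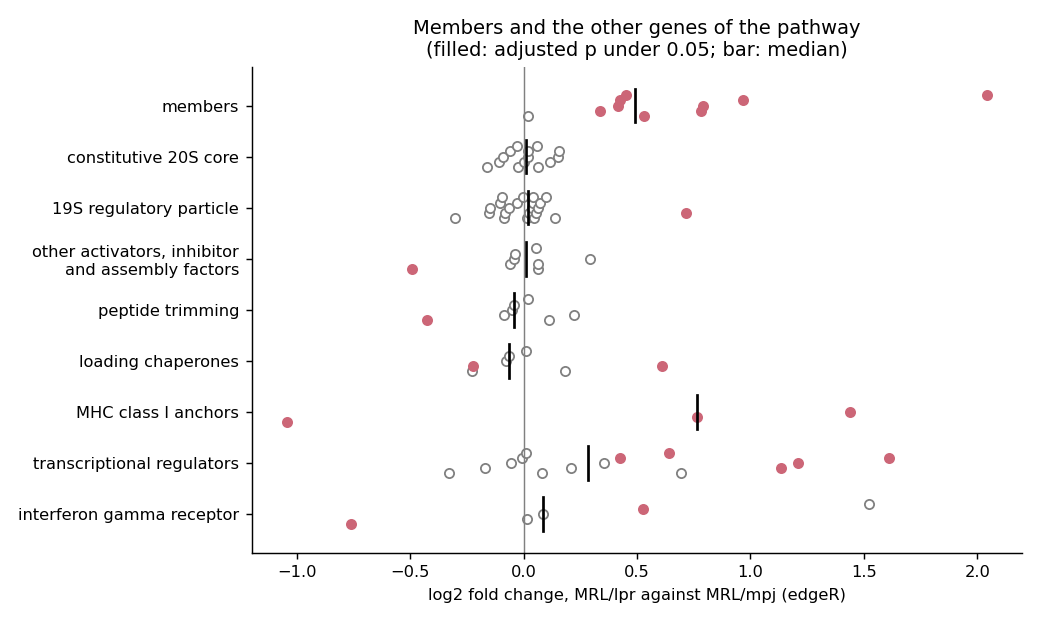
Log2 fold change (x axis, MRL/lpr against MRL/mpj, edgeR) of each of the 10 genes (top row, named members) and of the 80 other genes of the route by list, filled where the adjusted p was under 0.05, with a bar at each list's median. The bar of the 10 genes is at 0.49 and those of the 20S core and the 19S particle are at 0.01 and 0.02.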

How the data were processed

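CD11b+ cells were isolated from mouse brain, and 3 RNA libraries per strain were sequenced with paired ends. The labels describe removal of ribosomal RNA and a stranded kit, whereas the methods describe purified mRNA. Per the submitters' processing notes, reads were handled with cutadapt 1.9.3, HISAT2 2.0.4 and Cuffdiff 2.2.1 on GRCm38; the counting tool, its strand setting and its annotation are not given in the sources used here. The authors deposited raw counts per gene for 55401 Ensembl identifiers, whose low values pile up at 4. In a library 1138 to 1288 genes held 4 counts, against 320 to 415 with 3 counts and 211 to 261 with 5 counts. A read pair may thus often be worth 4 counts, but the values of 3 and 5 show that this does not hold throughout. Low counts may therefore be less precise than they look. The authors also deposited FPKM values per library, which are scaled by gene length and depth.

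Symbols and positions were those of GENCODE M21 (GRCm38) for 55141 matched identifiers, and promoter windows from RefSeq (GRCm38.p6). No protein sequences were used here. Counts were tested with edgeR 4.0.16 in R 4.3.3 (filterByExpr at its default minimums of 10 per library and 15 in total, TMM, robust quasi-likelihood test, no covariates, Benjamini-Hochberg adjustment over 19554 genes). The edgeR step was tested on simulated data. Ratios of FPKM within a library were compared with a two-sided exact permutation test. Alternatives were DESeq2 1.42.0, RLE scaling, library size only, no count filter, dispersions that are not robust, counts divided by 4, limma 3.58.1 on log2(FPKM + 0.1), a replicate block, and each library left out. The common biological coefficient of variation was 0.26, and with counts divided by 4 the squared difference between libraries of a strain, over its Poisson variance, had a median across genes of 0.987 to 2.17 for the pairs, where counting noise alone gives 0.455. The pairs with MRL/lpr replicate 3 gave 2.15 and 2.17, and all other pairs gave 0.987 to 1.22. The libraries were scaled by their totals for this.

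The 10 genes and all lists were chosen with earlier results of these data known. The text names the 10 genes, the counterparts of the immunosubunits, fixed partners and regulators, Fas, and, from each further list, up to 2 called genes with the largest and up to 2 with the smallest log2 fold change. A gene under this rule, counted within its list, is not reported by name here. Cx3cr1, Psme2b, Zbtb22, Gm19412, Gm15821, CT010467.1, Xist and Cd3e were named after their values were seen.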

Additional observations from a re-analysis of the deposited data

How the results depend on the processing

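Of the 9 genes called higher, Tap1, Tap2, Tapbpl, Psmb8, Psmb9 and Nlrc5 kept the call and direction in each of the 14 alternatives, with adjusted p-values of at most 0.0411. The number called higher was 9 with DESeq2, RLE scaling, no count filter and counts divided by 4, 8 without robust dispersions, 7 with library size only and with limma on FPKM, and 6 with the replicate block. It was 6 to 8 with each library left out, and 0 of the 10 genes were called lower in any of the 14. With library size only the median of all genes moved from -0.01 to -0.13 on the log2 scale, and with limma on FPKM to -0.12. Calls were lost for Psmb10 with the replicate block (adjusted p = 0.0559), for Psme1 with library size only (0.0613), limma on FPKM (0.0578) and the block (0.0569), and for Psme2 with these (0.166, 0.131 and 0.109) and without robust dispersions (0.0577).

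Tapbp, which was not called in any of them, turned negative with library size only (-0.12), limma on FPKM (-0.16) and the replicate block (-0.048), and ran from -0.36 to 0.19 with each library left out (-0.36 without MRL/lpr replicate 3, -0.09 without MRL/mpj replicate 3). The number of genes past a log2 fold change of 1 was 1 to 2 with each library left out. Of the other 80 genes, 5 were called lower, against 8 with library size only, 3 with the replicate block and 3 to 6 with each library left out. Among them Rfx5 lost its call with library size only (adjusted p = 0.0854) and limma on FPKM (0.115), Canx (0.0663) and Psmg2 (0.0668) lost theirs with the replicate block, and Irf1 gained one there (0.0485). The cause of these shifts was not tested. The subunit ratios kept their direction, at 0.82 to 1.14, 0.73 to 1.10 and 0.33 to 0.50 on the log2 scale for Psmb8, Psmb9 and Psmb10 with each library left out.

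The replicate numbers share no source in the labels. Deviations of libraries with the same number had correlations of -0.04, -0.02 and -0.03, and no library correlated best with its own number, so the block is given here only as an alternative.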
